A study of Mus musculus with 3 samples.

Results

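Genes for DNA replication and nucleotide synthesis were examined in ChIP-seq data from mouse brain cortices at embryonic day 13.5 (E13.5). The set comprised 49 listed genes of the 21951 protein-coding genes in GENCODE M21, and all 49 symbols matched the annotation. They were chosen by function, as subunits of the origin, helicase, polymerase, clamp and single-strand binding complexes and enzymes of dNTP synthesis. A few further S phase and repair genes were included. The choice was made with earlier results of these data known. Peaks from both antibodies were then read within 1000 bp of their transcription start sites (TSSs). The series held 3 libraries from E13.5 cortex, 1 from input chromatin, 1 from ChIP with an antibody against NF-YC and 1 from ChIP with an antibody against H3K4me3. No genotype or treatment was given for these libraries, and a cortex at this stage contains progenitors and neurons together. Each ChIP had 1 peak list, which gave the position, the summit and the fold enrichment over the local background of every peak. With 1 library per antibody there was no replicate error and no test between conditions, and the lists do not give the number of reads under a peak.

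Replication starts where the origin recognition complex (ORC), Cdc6 and Cdt1 load the MCM helicase ring onto DNA in G1. Cdc45 and the GINS complex then activate the helicase, polymerase alpha with primase lays primers, and polymerases delta and epsilon extend them on the PCNA clamp, which the RFC complex loads. RPA covers single-stranded DNA, and ribonucleotide reductase, thymidylate synthase and dUTPase supply and guard the dNTP pool. Many of these genes are textbook targets of E2F factors in proliferating cells. NF-Y is a trimer of NF-YA, NF-YB and NF-YC that binds the CCAAT box, which reads ATTGG on the opposite strand, and H3K4me3 marks active promoters.

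An NF-Y-ChIP summit lay within 1000 bp of a TSS for 10 of the 49 genes (20.4%, Wilson 95% confidence interval 11.5 to 33.6%). The genes were Mcm3, Mcm5, Cdc45, Gins1, Pole, Rpa2, Rpa3, Ung, Slbp and Usp1. Among all protein-coding genes 3.17% had such a summit, and among the 13767 with an H3K4me3-ChIP peak at the promoter 5.03%. Because the members were chosen with earlier results of these data known, these shares are not an independent comparison. No other member had a summit even within 5 kb of a TSS, the nearest being 56468 bp away at Prim1. All 49 members had an H3K4me3-ChIP peak within 1000 bp of a TSS, which 62.7% of all protein-coding genes had. The NF-Y-ChIP summits were thus carried by a minority of promoters that all bore the mark. All intervals describe counting over genes only, and a peak below the calling threshold would have been missed.

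The reference sequences around 9 of the 10 summits are shown because they carry the observation on which the remaining description turns, that most of them hold several CCAAT boxes. Each line gives 101 bases of GRCm38 centred on the summit, 5′ to 3′ on the strand of the gene, with CCAAT and ATTGG in capitals.
Mcm3 (chr1:20820307-20820407, minus strand): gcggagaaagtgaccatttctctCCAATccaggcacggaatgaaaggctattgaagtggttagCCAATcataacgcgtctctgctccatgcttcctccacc
Mcm5 (chr8:75109401-75109501, plus strand): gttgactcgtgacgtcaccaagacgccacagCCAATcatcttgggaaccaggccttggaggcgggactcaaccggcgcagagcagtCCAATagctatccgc
Cdc45 (chr16:18811641-18811741, minus strand): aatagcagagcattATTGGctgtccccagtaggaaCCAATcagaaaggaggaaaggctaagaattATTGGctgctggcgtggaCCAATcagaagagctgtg
Gins1 (chr2:150909539-150909639, plus strand): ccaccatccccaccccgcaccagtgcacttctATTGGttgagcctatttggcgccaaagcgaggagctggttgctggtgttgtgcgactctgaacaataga
Rpa2 (chr4:132768275-132768375, plus strand): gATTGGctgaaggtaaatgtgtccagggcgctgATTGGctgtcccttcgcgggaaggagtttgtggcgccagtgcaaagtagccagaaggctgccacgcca
Rpa3 (chr6:8259159-8259259, minus strand): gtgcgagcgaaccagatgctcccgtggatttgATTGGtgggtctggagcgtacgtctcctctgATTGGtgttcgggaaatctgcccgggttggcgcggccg
Ung (chr5:114130779-114130879, plus strand): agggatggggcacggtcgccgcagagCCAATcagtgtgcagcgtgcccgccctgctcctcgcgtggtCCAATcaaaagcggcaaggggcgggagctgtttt
Slbp (chr5:33652622-33652722, minus strand): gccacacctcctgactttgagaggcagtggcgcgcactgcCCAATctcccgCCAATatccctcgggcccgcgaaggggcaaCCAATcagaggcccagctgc
Usp1 (chr4:98923277-98923377, plus strand): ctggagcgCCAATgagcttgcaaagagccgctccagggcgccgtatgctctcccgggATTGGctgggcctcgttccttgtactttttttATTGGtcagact

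CCAAT or ATTGG lay within 50 bp of the summit in all 10, and at least 2 copies did so in 9. Only Gins1 had a single copy there, and its peak held 2. The same count around all other NF-Y-ChIP summits is not given here, so several copies are not shown to be particular to these genes. The nearest motif was centred a median of 15 bp from the summit (range 3 to 42 bp), the farthest being that of Pole. Cdc45 carried 4 copies in alternating orientation within its 101 bases, with starts 21, 30 and 18 bp apart. In Mcm3, Mcm5, Ung and Slbp the boxes shown read CCAAT on the strand of the gene, and in Gins1, Rpa2 and Rpa3 they read ATTGG. Cdc45 and Usp1 had both readings, so orientation was not shared by the genes. In the sequences shown, the distance between neighbouring starts varied from 11 bp, for the first pair in Slbp, to 55 bp in Mcm5.

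By role, the 10 genes were spread over 5 of the 11 groups. Of the MCM genes, Mcm3 and Mcm5, which encode neighbouring subunits of the helicase ring, had NF-Y-ChIP peaks. The Mcm3 peak (chr1:20820216-20820507) had a fold enrichment of 5.56 and ranked 511 of 733 in the list, and the summit lay 45 bp before the TSS. The Mcm5 peak (chr8:75109314-75109541) reached 9.69-fold, rank 138, with the summit 118 bp upstream. The other ring subunits, Mcm2, Mcm4, Mcm6 and Mcm7, had none, nor had Mcm10, which acts in origin firing. The genes of the ring were thus split between promoters with and without a called NF-Y-ChIP peak. Cdc45 and Gins1 encode parts of the active helicase with the MCM ring. At Cdc45 the peak (chr16:18811556-18811818) was 7.41-fold, rank 292. The summit fell 65 bp before the nearest Cdc45 TSS, but 281 bp downstream of the TSS of the principal transcript and inside an annotated exon. At Gins1 the peak (chr2:150909423-150909662) was the weakest of the members, with 4.33-fold enrichment, rank 663, and its summit lay 5 bp upstream of the principal TSS. Gins2, Gins3 and Gins4, whose products complete the GINS complex, had no peak.

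RPA was the complex with the most NF-Y-ChIP peaks for its size, 2 of 3 genes. Rpa2 encodes the middle subunit, and its peak (chr4:132768189-132768433) had 9.87-fold enrichment, rank 127, and a summit 7 bp upstream of the nearest TSS. Rpa3 encodes the smallest subunit, and its peak (chr6:8259097-8259284) had 5.11-fold enrichment, rank 583, at 36 bp upstream. Rpa1, the large subunit, had no peak although its promoter held 2 CCAAT boxes. Pole, the catalytic subunit of polymerase epsilon, was the only polymerase gene with a peak (chr5:110286204-110286465, 4.64-fold, rank 630, 43 bp upstream). Its partner Pole2 and the genes of polymerases alpha and delta (Pola1, Pola2, Pold1, Pold2 and Pold3), like the primase genes Prim1 and Prim2, had none.

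The remaining 3 peaks were at genes outside the replication fork itself, and 2 of these were among the strongest of the members. Usp1, a deubiquitinase of PCNA and FANCD2, had the highest fold enrichment of the 10 (10.6-fold, rank 113, chr4:98923198-98923515) and the most distant summit, 483 bp upstream. Slbp, which binds the stem-loop of histone mRNA, had a 9.73-fold peak (rank 134, chr5:33652555-33652807) with the summit at 98 bp upstream. Ung, the uracil DNA glycosylase, had a 6.02-fold peak (rank 448, chr5:114130691-114130918) at 97 bp upstream. Msh6, a mismatch recognition subunit, had none.

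No NF-Y-ChIP summit lay near any of the 6 ORC genes, Cdc6, Cdt1 or Gmnn, which load the helicase or, in the case of Gmnn, restrain loading. The same was true of the 5 RFC genes, of Pcna, Fen1 and Lig1, which act at the clamp and in Okazaki fragment maturation, and of the nucleotide synthesis genes Rrm1, Rrm2, Tyms and Dut. The plot of peak strength by complex shows these groups.

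**Figure D1:**
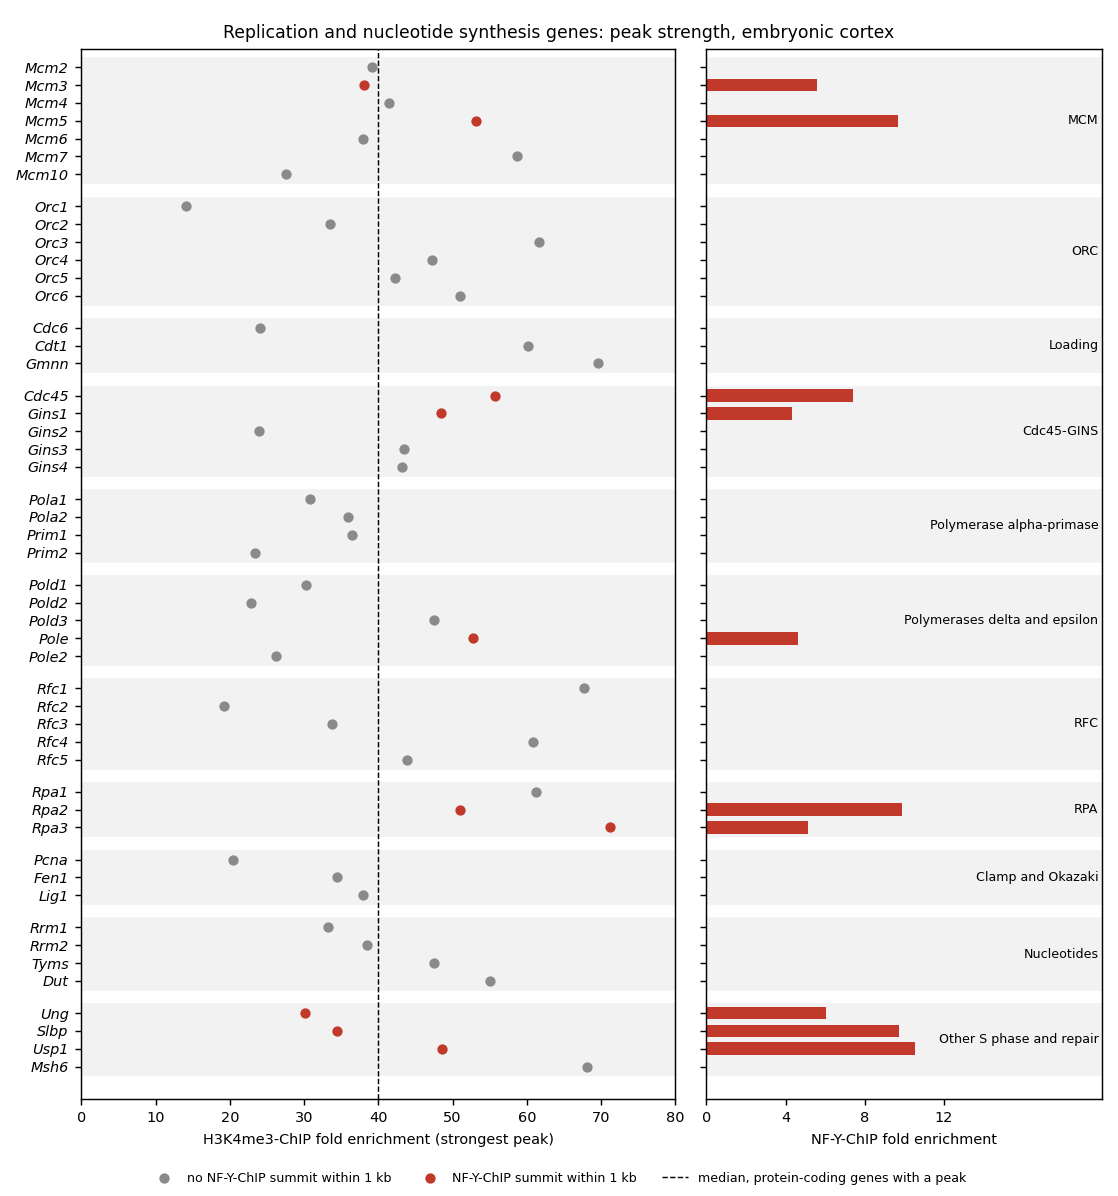
Fold enrichment of the strongest H3K4me3-ChIP peak (left, points) and of the NF-Y-ChIP peak (right, bars) for each of the 49 genes, grouped by complex; red marks genes with a summit of NF-Y-ChIP inside the distance limit, and the dashed line is the median of the 13767 protein-coding genes with H3K4me3, 39.9-fold. NF-Y-ChIP peaks range from 4.33-fold at Gins1 to 10.6-fold at Usp1, while H3K4me3-ChIP peaks range from 14.1-fold at Orc1 to 71.2-fold at Rpa3.

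The peaks of the members were of ordinary strength for the NF-Y-ChIP list. Their median fold enrichment was 6.71 (range 4.33 to 10.6), against 6.75 over all 733 peaks, and 5 of the 10 were above that median. Their median width was 249 bp, against 224 bp over the list. All 10 had a q-value under 0.05, the threshold the authors used for H3K4me3-ChIP, although NF-Y-ChIP peaks were called by p-value. The lowest −log10 q was 1.51, at Gins1, and the highest 17.7, at Rpa2. Every summit was upstream of the nearest TSS of its gene, at a median of −55 bp (range −483 to −5 bp). Of the 10 summits, 7 were upstream of the gene, those of Gins1 and Ung were in an intron because a further TSS is annotated upstream, and that of Cdc45 was in an exon.

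Promoter sequence was then compared between members with and without a peak. The window ran from 250 bp before to 50 bp after the TSS of the principal protein-coding transcript. It held CCAAT or ATTGG in 30 of 49 members (61.2%, interval 47.2 to 73.6%) and in 37.5% of all promoters of protein-coding genes with H3K4me3. At least 2 boxes were present in 17 members (34.7%, interval 22.9 to 48.7%) and in 13.4% of those promoters. These motif counts come from the reference sequence alone and do not depend on the NF-Y-ChIP library.

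The NF-Y-ChIP summits fell on the members with several boxes. Of the 17 members with at least 2 boxes, 9 had a summit (52.9%, interval 31.0 to 73.8%), where 22.3% of all such promoters with H3K4me3 did. All 5 members with 3 or more boxes, Mcm3, Mcm5, Rpa2, Ung and Slbp, had a summit, and so did 4 of the 12 with 2 boxes, Cdc45, Gins1, Pole and Rpa3. None of the 13 members with exactly 1 box had one (0%, upper limit of the interval 22.8%). Among all protein-coding genes with H3K4me3 the shares were 1.34% with no box, 4.95% with 1, 15.9% with 2 and 34.6% with 3 or more. The rise with the number of boxes was therefore also present over the whole series, and the difference between members and other genes was not tested. Counted from the summits, 9 of the 10 members with a summit had at least 2 boxes in the window (90%, interval 59.6 to 98.2%). Of the 692 marked protein-coding genes with a summit, 59.7% had at least 2, just inside that interval, and 83.4% had at least 1. Several boxes were thus common among genes with a summit and not particular to the members. Of the 19 members without a box, only Usp1 had a summit. The 3 boxes within 50 bp of that summit, at −483 bp, lie outside the window, and the whole peak held 5. At Cdc45 the boxes of the window, at −13 and −2 bp, were not those under the summit.

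**Figure D2:**
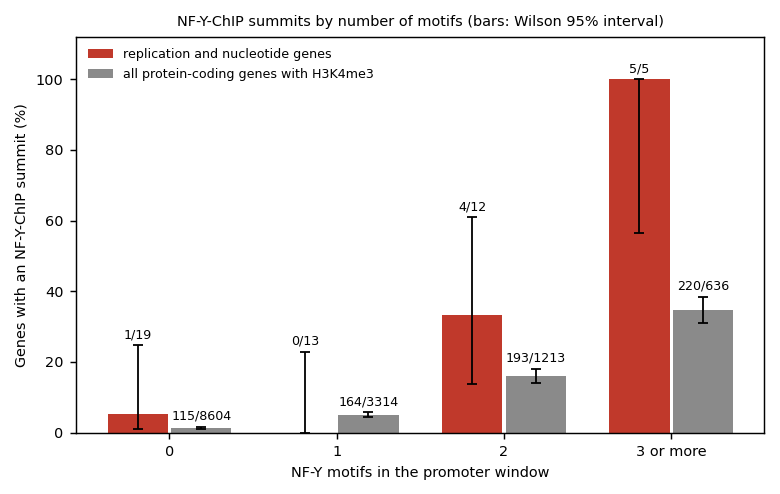
Share of genes with a nearby NF-Y-ChIP summit (vertical axis, percent) by the number of NF-Y motifs in the promoter window, for the 49 genes (red) and all 13767 protein-coding genes with H3K4me3 (grey), with Wilson 95% intervals and counts above the bars. Members go from 1 of 19 with no motif and 0 of 13 with 1 to 5 of 5 with 3 or more. All genes go from 115 of 8604 with no motif and 164 of 3314 with 1 to 220 of 636.

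The 8 members with at least 2 boxes and no NF-Y-ChIP summit were Mcm4, Mcm6, Orc1, Orc6, Gins3, Pold2, Rpa1 and Rrm1. In 5 of them both boxes lay within 130 bp upstream of the TSS. Their 130 bases before the TSS are shown for comparison with the summits above, on the strand of the gene, with the boxes in capitals.
Mcm6 (chr1:128359665-128359794, minus strand): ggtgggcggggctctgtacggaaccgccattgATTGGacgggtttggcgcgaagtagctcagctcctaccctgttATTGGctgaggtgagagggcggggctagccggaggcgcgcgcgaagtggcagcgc
Orc1 (chr4:108579324-108579453, plus strand): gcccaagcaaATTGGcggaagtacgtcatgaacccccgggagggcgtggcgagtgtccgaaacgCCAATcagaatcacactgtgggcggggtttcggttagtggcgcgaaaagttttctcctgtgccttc
Gins3 (chr8:95633323-95633452, plus strand): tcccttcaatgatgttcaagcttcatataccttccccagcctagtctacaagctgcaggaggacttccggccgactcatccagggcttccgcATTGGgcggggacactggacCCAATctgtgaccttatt
Rpa1 (chr11:75348325-75348454, minus strand): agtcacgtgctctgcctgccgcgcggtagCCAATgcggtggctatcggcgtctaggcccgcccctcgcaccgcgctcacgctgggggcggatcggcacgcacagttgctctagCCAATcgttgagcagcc
Rrm1 (chr7:102441565-102441694, plus strand): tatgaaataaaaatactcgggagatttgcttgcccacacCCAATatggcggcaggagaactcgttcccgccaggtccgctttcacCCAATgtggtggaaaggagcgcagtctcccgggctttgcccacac

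The starts of the boxes were 43 bp apart in Mcm6, 46 bp in Rrm1, 54 bp in Orc1, 84 bp in Rpa1 and 20 bp in Gins3. Over all promoter windows, neighbouring starts were a median of 36 bp apart in members with a summit (14 distances, range 11 to 147 bp) and 51 bp apart in those without (8 distances, range 20 to 232 bp). The ranges overlapped. All 23 boxes in windows of members with a summit started upstream of the TSS, whereas 24 of the 29 boxes in the other windows did. The box followed by CA, CCAATCA on either strand, was looked up after the sequences had been read. It was present in the window of 6 of the 10 members with a summit (60%), in 5 of the 39 without (12.8%), and in 9.99% of all promoters with H3K4me3. Among all marked genes with an NF-Y-ChIP summit it was present in 43.2%, which lies within the interval of the 10 members (31.3 to 83.2%). The 5 without a summit were Mcm4, Mcm6, Orc1, Gins4 and Pola1. Because summits also went with the number of boxes, they were counted among promoters with at least 2. Of these, a summit was present in 30.8% of the 801 marked promoters with CCAATCA and in 15.8% of the 1048 without. Among the members the counts were 6 of 9 and 3 of 8, with overlapping intervals (35.4 to 87.9% and 13.7 to 69.4%).

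**Figure D3:**
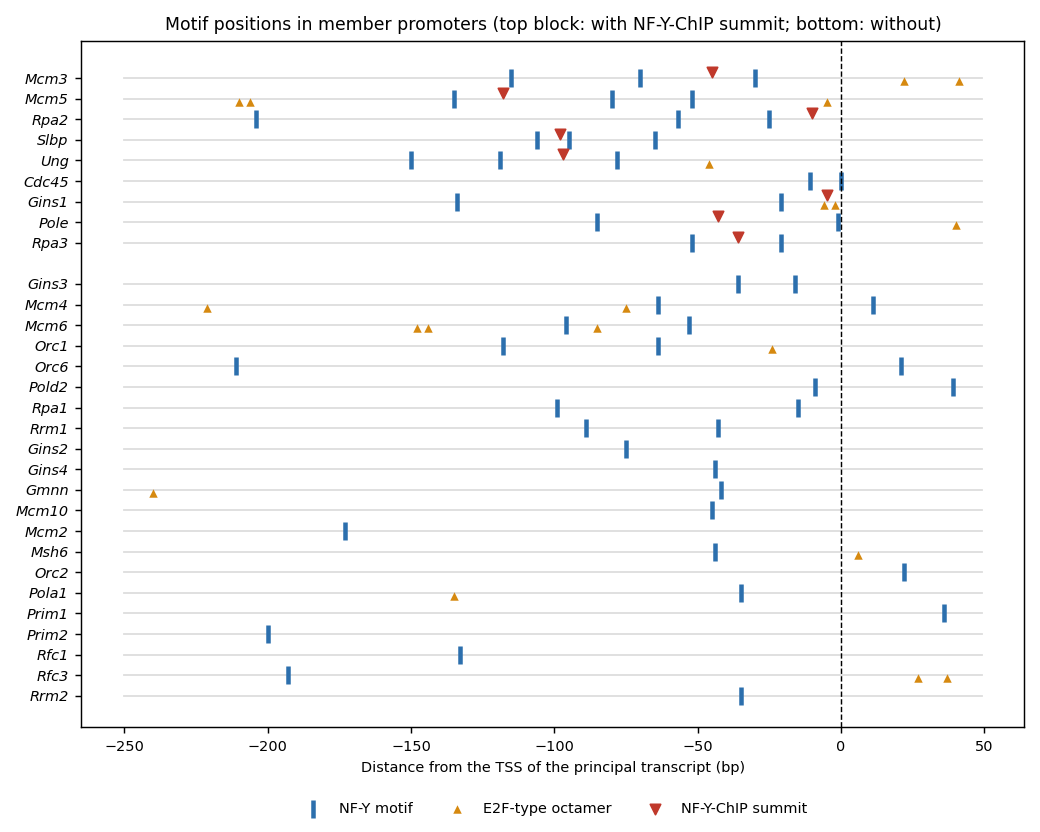
Positions of NF-Y motifs (blue), E2F-type octamers (orange) and NF-Y-ChIP summits (red) in the promoter windows of the 30 members with at least 1 NF-Y motif, in bp from the TSS of the principal transcript; the upper block has NF-Y-ChIP summits and the lower block does not. In the upper block all 23 motifs start upstream of the TSS, and the summit of Cdc45, at 281 bp, is outside the window.

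E2F-type octamers were the second sequence feature of the set. TTTCCCGC, TTTCGCGC, TTTGGCGC or TTTGCCGC, on either strand and with overlapping matches allowed, occurred in the window of 17 of 49 members (34.7%, interval 22.9 to 48.7%). The same octamers were present in 4.12% of all promoters with H3K4me3. All 3 loading genes had one, Cdc6 at −138 bp, Cdt1 at 32 bp and Gmnn at −243 bp, and so did 4 of the 7 MCM genes, Mcm3, Mcm4, Mcm5 and Mcm6. None was found in the windows of the RPA genes, the nucleotide synthesis genes or Pcna, Fen1 and Lig1, which says only that these letters are absent there. The octamer was present in 6 of the 10 members with an NF-Y-ChIP summit, Mcm3, Mcm5, Gins1, Pole, Ung and Usp1, and in 11 of the 39 without. The intervals overlapped (31.3 to 83.2% and 16.5 to 43.8%). Of all marked genes with an NF-Y-ChIP summit, 6.94% had an octamer. Both a CCAAT box and an octamer were present in 12 members, a box alone in 18, an octamer alone in 5 and neither in 14. Only at Gins1 did a whole octamer lie within 50 bp of the summit. At Ung, whose summit is at −97 bp, an octamer starting at −49 bp crossed that limit. At Gins1, TTTGGCGC and its overlapping reverse complement start at −9 and −5 bp, beside the ATTGG at −23 bp. The GC box GGGCGG, on either strand, was present in 35 of 49 members (71.4%, interval 57.6 to 82.2%), and the 64.8% of all promoters with H3K4me3 lay within that interval.

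H3K4me3 at the members was close to that of other marked genes. The strongest peak within 1000 bp had a median fold enrichment of 41.4 (interquartile range 33.2 to 52.8), against 39.9 over the 13767 genes (25.7 to 52.7), and 25 of the 49 were above the latter median. The highest values were those of Rpa3 (71.2-fold), Gmnn (69.6-fold), Msh6 (68.1-fold) and Rfc1 (67.8-fold). The summit at Rpa3 lay at −315 bp, beyond the TSS of the divergent gene Umad1, 115 bp upstream. That peak therefore cannot be assigned to Rpa3 alone. The lowest were those of Orc1 (14.1-fold), Rfc2 (19.3-fold) and Pcna (20.4-fold). Pcna, the sliding clamp, thus had one of the weakest peaks by fold enrichment, but its peak was 2397 bp wide against a median width of 1333 bp over the members. The lower end of the range was not shared by whole complexes, since Rfc1 and Rfc2, or Orc3 (61.6-fold) and Orc1, lay at opposite ends.

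By complex, the RPA genes were all above the median of marked genes, from 51.0-fold at Rpa2 to 71.2-fold at Rpa3. Rpa2 was still inside the interquartile range of marked genes (25.7 to 52.7). All 4 genes of polymerase alpha and primase were below the median of marked genes, from 23.4-fold at Prim2 to 36.4-fold at Prim1. So were Pcna, Fen1 (34.5-fold) and Lig1 (37.9-fold), none of which had a CCAAT box in the window or an NF-Y-ChIP summit. At Lig1 the H3K4me3-ChIP summit lay 1296 bp after the principal TSS, and the peak did not reach the window searched for boxes. The MCM genes ranged from 27.5-fold at Mcm10 to 58.7-fold at Mcm7, and the nucleotide synthesis genes from 33.2-fold at Rrm1 to 55.0-fold at Dut. Within the loading group Cdc6, at 24.1-fold, was well below Cdt1 (60.2-fold) and Gmnn. Without replicates, the order of neighbouring values has no error estimate.

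Members with an NF-Y-ChIP summit had a median H3K4me3-ChIP fold enrichment of 49.7 (range 30.1 to 71.2) and those without 38.5 (range 14.1 to 69.6). The ranges overlapped over most of their length, and 7 of the 10 members with a summit were above the median of all marked genes. Over all marked protein-coding genes the medians were 46.7 with a summit and 39.4 without. The 8 members with at least 2 boxes and no summit had a median of 39.7 (range 14.1 to 61.2). The width of the peak had a median of 1811 bp with and 1326 bp without a summit. Several boxes and H3K4me3 above the median of marked genes thus also occurred without a called NF-Y-ChIP peak, as at Rpa1 (61.2-fold) and Orc6 (51.0-fold).

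NF-Y-ChIP and H3K4me3-ChIP summits did not fall in the same place. Each of the 10 NF-Y-ChIP peaks overlapped an H3K4me3-ChIP peak, and 8 of the summits were inside one. Overlap was likely beforehand, because the summits were taken within 1000 bp of TSSs of genes that all bore the mark. The paper also reports that most of its NF-Y-ChIP regions lie in H3K4me3 regions. The Mcm3 summit was just outside, with the H3K4me3-ChIP peak (chr1:20819303-20820356) ending beside it. The Usp1 summit lay in a gap of 55 bp between H3K4me3-ChIP peaks of 28.5-fold upstream and 48.5-fold downstream. Measured from the principal TSS, 39 of the 49 H3K4me3-ChIP summits were downstream, with a median over all members of 201 bp. None lay from −147 to 128 bp, apart from those at Cdc6 and Mcm5, which set these bounds. In contrast, 8 of the 10 NF-Y-ChIP summits lay between −118 and −5 bp. The same positions over all marked genes are not given here.

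**Figure D4:**
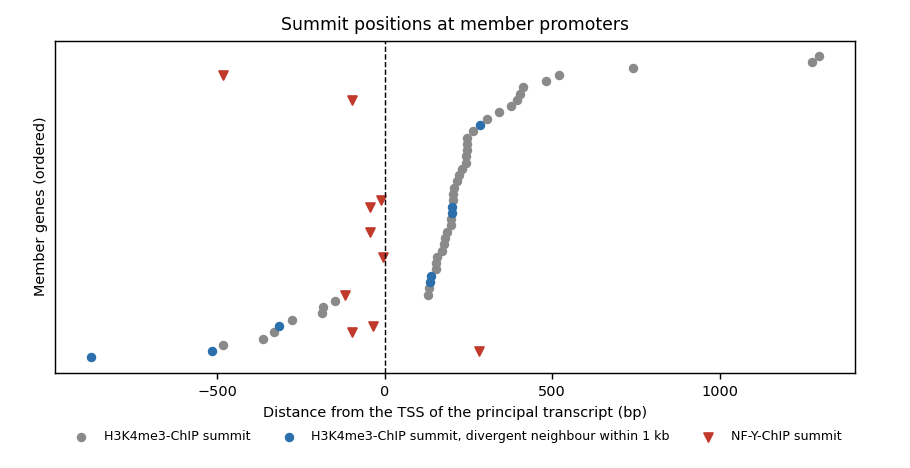
Summit positions in bp from the TSS of the principal transcript for the 49 genes, ordered by the H3K4me3-ChIP summit; grey and blue points are H3K4me3-ChIP summits without and with a divergent protein-coding neighbour within 1 kb, and red triangles are NF-Y-ChIP summits. The H3K4me3-ChIP summits leave the stretch between −147 and 128 bp empty, where 8 of the 10 NF-Y-ChIP summits lie.

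Several members shared their promoter with another gene. A protein-coding gene on the opposite strand had its TSS within 1000 bp upstream for 8 of 49 members (16.3%, interval 8.51 to 29.0%), against 13.0% of all marked genes. These pairs were Mcm4 with Prkdc, Orc1 with Prpf38a, Orc3 with Rars2, Orc4 with Mbd5, Cdc45 with Ufd1, Pole with Pxmp2, Rpa1 with Smyd4 and Rpa3 with Umad1. An NF-Y-ChIP summit was present for 3 of the 8 pairs, at Cdc45, Pole and Rpa3, and for 7 of the 41 other members. Over all marked protein-coding genes, 8.46% of the 1796 with such a neighbour had a summit, against 5.03% of all marked genes. At these 3 promoters the peak lists cannot assign the peak to one gene or the other, although in each case the TSS of the member was the nearest to the summit. The H3K4me3-ChIP peaks were a median of 1830 bp wide at the pairs and 1284 bp at the other members. Of the 10 members whose H3K4me3-ChIP summit was upstream of the principal TSS, 3 were such pairs, Orc4, Cdc45 and Rpa3. Their summits, at −876, −516 and −315 bp, lay beyond the TSS of the neighbour, 232, 322 and 115 bp upstream. The H3K4me3-ChIP fold enrichment at these 3 therefore cannot be assigned to one gene or the other either.

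More than 1 H3K4me3-ChIP peak lay within 1000 bp of a TSS for 5 members, the 4 below and Usp1. Whether these are separate sites or parts of a split peak was not tested. Gins1 had a 46.6-fold peak upstream of the 5′ end of the gene, its summit at −962 bp from the nearest TSS, with no NF-Y-ChIP summit, and a 48.5-fold peak at the TSS with the summit. Orc4 had adjacent peaks of 47.2-fold and 38.8-fold. The second peaks of Cdt1 (5.16-fold) and Rrm2 (6.10-fold) were far weaker than the first (60.2-fold and 38.5-fold).

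A further 36 genes of replication and nucleotide metabolism outside the set, such as those of origin firing, histone chaperones and thymidine kinase, were read in the same way. An NF-Y-ChIP summit was present for 2 of the 36 (5.56%, interval 1.54 to 18.1%), close to the 5.03% of all marked genes. They were Ticrr, which recruits Cdc45 to origins, with 11.6-fold enrichment and the summit at −122 bp from the nearest TSS, and Chaf1a, a subunit of the chromatin assembly factor, with 9.25-fold enrichment and the summit at −129 bp. All 36 had an H3K4me3-ChIP peak, 16 had at least 1 CCAAT box (44.4%, against 37.5% of all marked promoters), 6 had at least 2 (16.7%, against 13.4%) and 9 had an E2F-type octamer (25%, against 4.12%). Of 34 kinetochore and spindle checkpoint genes, which act in mitosis, 5 had a summit (14.7%, interval 6.45 to 30.1%), Ttk, Cenpf, Cenpk, Mis12 and Cdca8. All 34 had an H3K4me3-ChIP peak. A CCAAT box was present in 21 of these 34 promoters (61.8%), close to the 61.2% of the replication set. At least 2 boxes were present in 11 (32.4%), close to the 34.7% of the replication set, while an E2F-type octamer was present in 2 (5.88%). These intervals overlap for NF-Y-ChIP, and no test between the gene lists was made.

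Marker genes were read to check the tissue label. H3K4me3-ChIP peaks were present at the TSSs of all 5 progenitor markers, both intermediate progenitor markers and all 4 neuron markers, from 4.61-fold at Neurod6 to 56.0-fold at Vim. The liver, muscle and endothelial markers Alb, Myod1 and Pecam1 had none. Because 62.7% of all protein-coding genes had such a peak, the markers are only a coarse check. A missing peak does not show that a cell type was absent. The peaks of the members thus come from tissue with progenitor and neuron promoters marked together, and the share of cells in S phase cannot be read from the lists.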

How the data were processed

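ChIP-seq of E13.5 mouse cortex gave 2 peak lists, NF-Y-ChIP and H3K4me3-ChIP, and the input was not analysed here. According to the methods and the submitters' processing notes, the authors used Trimmomatic, Bowtie 2 (2.2.8) against mm10 (GRCm38) and MACS2 (2.1.2), keeping peaks with p < 0.001 from NF-Y-ChIP and q < 0.05 from H3K4me3-ChIP. The paper names the input as its negative control, but the peak calling command, and so whether the input entered it, is not given in the sources used here. Deposited fold enrichment is a ratio, the pileup at a summit over its local background. The authors' files also hold −log10 values of each p-value and q-value. In the deposited lists the score equals 10 times −log10 p, rounded down, for NF-Y-ChIP, and the same with q for H3K4me3-ChIP. The lists carry no sample name. The NF-Y-ChIP list was identified by its score and its number of peaks, which is the one in the paper. The longer list was taken as H3K4me3-ChIP by its score, although its number of peaks is not the number of H3K4me3 regions in the paper, a difference whose origin is not known. Summit positions were used as deposited.

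TSSs were the 5′ ends of all GENCODE M21 transcripts of a gene. NF-Y-ChIP was counted by the summit and H3K4me3-ChIP by the nearest base of the peak, both within 1000 bp. Sequences were read from the RefSeq copy of GRCm38, and no peak ended beyond its chromosomes. A summit sequence and a marker gene are not reported here. Principal transcripts were those tagged by APPRIS. Named genes were the members, with the values of every member with an NF-Y-ChIP summit, the extremes of H3K4me3-ChIP and the genes with CCAAT boxes, and genes of the comparison lists with a summit. Shares have Wilson 95% intervals, and no gene lists were tested against each other. The members and lists were chosen with earlier results of these data known. Functions were tested on simulated data. Other distances, TSS definitions, peak thresholds and promoter windows were tried. Python 3.11.15, NumPy 2.4.6, pandas 2.3.3, SciPy 1.17.1, pysam 0.24.0 and matplotlib 3.10.9 were used.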

Additional observations from a re-analysis of the deposited data

How the results depend on the processing

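The count of 10 members with an NF-Y-ChIP summit, and the same 10 genes, held with limits of 500 and 2000 bp, the nearest base of the peak, protein-coding transcripts, q < 0.05, the nearest gene only, and summits in the gene body or up to 5 kb before it. With gene 5′ ends it was 9, without Gins1. With only the stronger 50% of NF-Y-ChIP peaks it was 5, without Gins1, Mcm3, Pole, Rpa3 and Ung, and the count over all protein-coding genes fell from 695 to 371, as fewer peaks were used. H3K4me3 remained called at 48 members with gene 5′ ends and at 41 with the stronger 50% of its peaks. Members with a CCAAT box were 24 with 150 bp before the TSS and 36 with 500 bp before to 50 bp after. In alternatives added after seeing the data, members with at least 2 boxes were 12, 24 and 15 with those windows and the gene 5′ end. Of these, 7, 10 and 7 had a summit. Among members with fewer than 2 boxes, a summit was present in 3 of 37, 0 of 25 and 3 of 34, against 1 of 32 in the main window. The low count with fewer boxes thus depended on the window. RefSeq promoter windows, matched for 40 of the 49 genes, held a box in 25. No paired analysis was possible because each antibody has 1 library. Read depth is not known, so a member without a called peak may have been below the threshold.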
